A study of Bos taurus with 21 samples.

Results

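The genes described here encode proteins of the Z-disc, the plate that joins neighbouring sarcomeres in striated muscle, together with ankyrin-repeat proteins linked to stretch. The list held 10 genes: *ACTN2*, *ACTN3*, *MYOZ1*, *MYOZ2*, *MYOZ3*, *TCAP*, *LDB3*, *CSRP3*, *ANKRD1* and *ANKRD2*. Their members on the array were all probes whose RefSeq transcript belongs to a listed gene in the cattle annotation, which gave 24 probes of 9 genes among 43653 probes and 12538 named genes. No probe was matched to *ANKRD2* by this rule, so it was not analysed here. All 24 probes were well above background on all 21 arrays. Of these, 22 passed the filter on mean level, at least 1 for each of the 9 genes, and the others were 1 probe of *ANKRD1* and 1 of *MYOZ3*. Each gene is given by its brightest tested probe.

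Muscle RNA of Blonde d'Aquitaine (BA) and Charolais (CH) cattle foetuses was taken at 110, 180, 210 and 260 days post conception (dpc) and hybridised to single-colour arrays, 1 per foetus. There were 10 BA foetuses, 3 at 110 dpc, 2 at 180 dpc, 3 at 210 dpc and 2 at 260 dpc, and 11 CH foetuses, 2 at 110 dpc and 3 at each later stage. Each breed had 2 sires of its own, so sire and breed cannot be told apart, and 3 BA and 5 CH foetuses were male. Both BA foetuses of 180 dpc had the same sire, and both of 260 dpc had the other BA sire. All 3 CH foetuses of 210 dpc also shared a sire, so that sire is partly tied to stage as well. BA is a breed in which a *MSTN* (myostatin) mutation is common, but the foetuses were not typed for it. The sample labels name the *Longissimus thoracis* muscle, whereas the study's text names the *Semitendinosus*, and the data do not settle which was taken. At 180 and 260 dpc both BA foetuses were female, as were both CH foetuses at 110 dpc.

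The Z-disc anchors the thin filaments of adjoining sarcomeres through α-actinin, and a set of smaller proteins ties α-actinin to titin, to the membrane and to signalling enzymes. Some of these proteins exist as fast-fibre and slow-fibre forms, so that their relative amounts change as foetal fibres mature into fast and slow types. Several Z-disc proteins and the muscle ankyrin-repeat proteins can also move to the nucleus, and the genes of the latter are known to respond to stretch, overload and injury of muscle.

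Skeletal muscle markers were bright on all arrays. The 5 measured genes of the 7 skeletal muscle markers, among them *ACTA1* and *DES*, had a mean log2 intensity between 9.43 and 10.87 in every sample. Of 4 heart markers 2 had a probe. *NPPA* was well above background on 0 of the 21 arrays, and *TNNI3*, cardiac troponin I, on 21, with log2 intensities from −0.58 to 2.94 that fell by 1.25 from 110 to 260 dpc. The mean level of the 4 fibroblast markers was 8.38 in BA and 8.45 in CH at 110 dpc and 7.73 and 7.68 at 260 dpc. That of the 4 smooth muscle markers, 2 of which rose and 1 of which fell, went from 5.46 and 5.56 to 6.42 and 6.51. The 2 tested erythroid markers fell, *HBB* by 2.46 and *HBA* by 1.64, and 2 of the 3 Schwann cell markers rose, with a median of 1.02. The part of these cell types in the values below was not tested. Whole muscle was measured, so fewer cells of a type and less RNA per cell cannot be told apart. The number of foetuses, 2 or 3 in a group, limits the precision of every value.

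All 9 measured genes were higher at 260 dpc than at 110 dpc on average over both breeds, and 22 of their 22 tested probes were called higher (limma, Benjamini-Hochberg adjusted p under 0.05), where 33.3% of the 20132 probes tested were. The median difference of the 9 genes was 2.89 on the log2 scale, beside 0.04 over all tested probes. The differences ran from 0.69 for *MYOZ2*, the slow-fibre and cardiac calsarcin, to 6.93 for *ACTN3*, the α-actinin of fast fibres. Within BA, 9 of 9 genes passed, against 27.6% of all probes called higher, and within CH 9 of 9, against 27.5%.

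**Figure D1:**
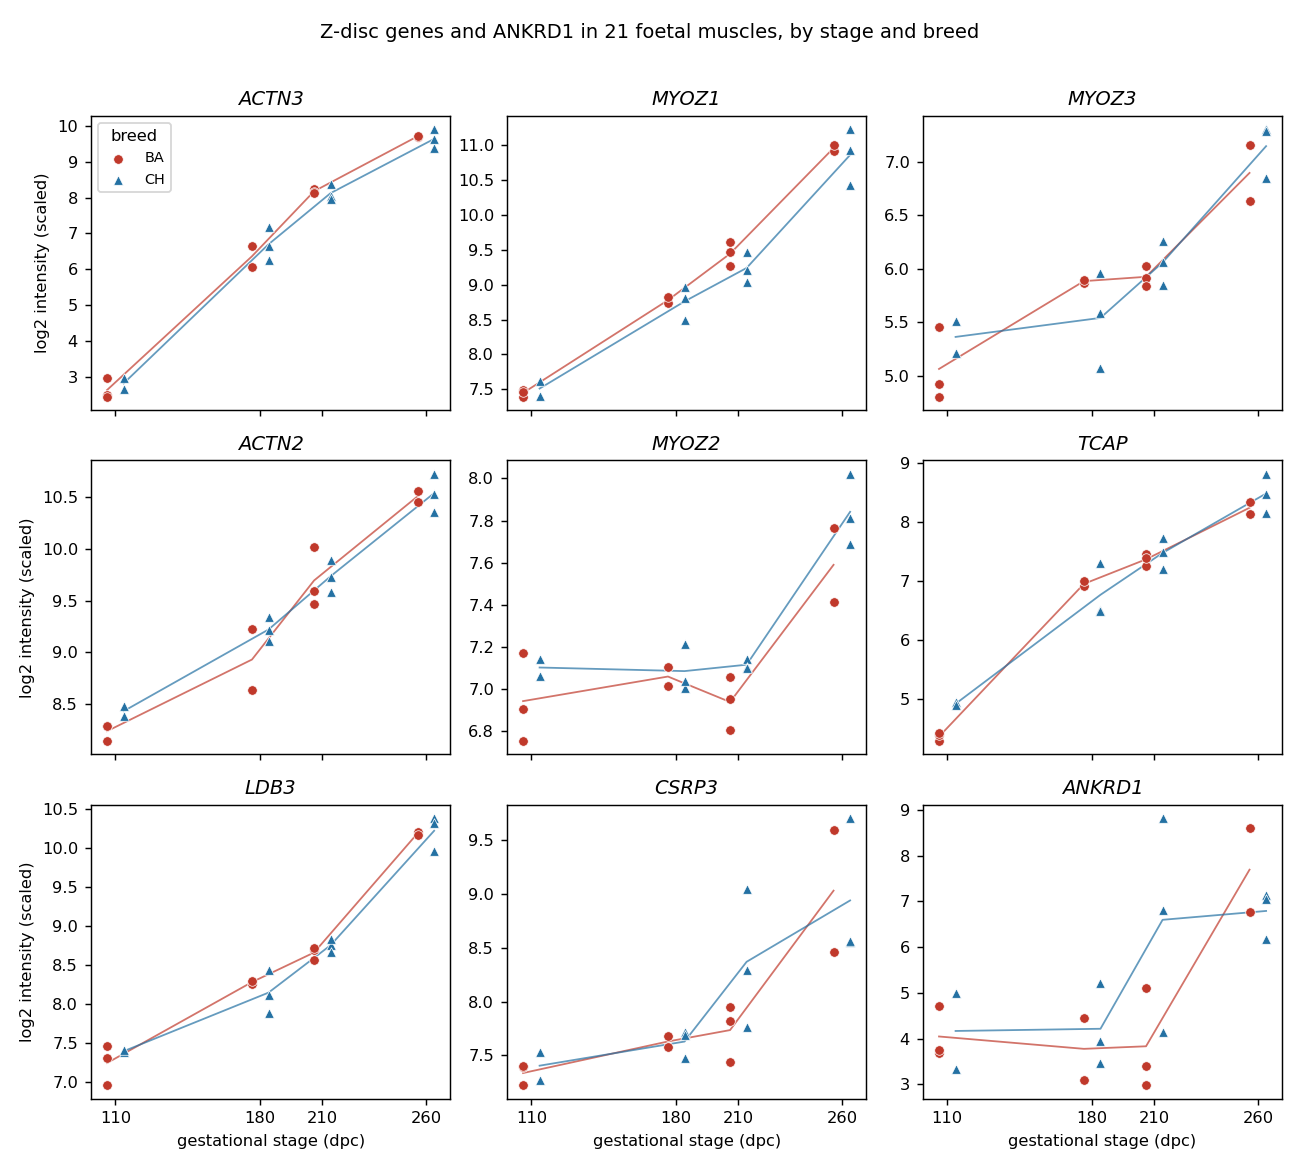
Scaled log2 intensity (vertical axis) of the brightest tested probe of each of the 9 genes against gestational stage in dpc, with 1 point per foetus (BA circles, CH triangles) and lines through the group means. The axes differ between panels, and levels are not comparable between genes. *ACTN3* climbs at every stage, *MYOZ2* is flat until 210 dpc, and *CSRP3* and *ANKRD1* scatter most.

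The α-actinins cross-link actin filaments at the Z-disc, *ACTN2* in all striated fibres and *ACTN3* in fast fibres alone. The log2 intensity of *ACTN3* at 110 dpc was 2.51, 2.97 and 2.46 in BA and 2.98 and 2.68 in CH. At 180 dpc it was 6.08 and 6.65 in BA and 6.65, 7.18 and 6.27 in CH. Every foetus of 180 dpc thus lay above every foetus of 110 dpc, in both breeds. At 210 dpc the values were 8.23, 8.17 and 8.12 in BA and 8.04, 8.37 and 7.96 in CH, and at 260 dpc 9.69 and 9.72 in BA and 9.37, 9.89 and 9.63 in CH. No value of one stage reached those of the next, and the breeds overlapped at each. From 110 to 260 dpc it gained 6.93 ± 0.17 (SE), a 122-fold rise and the 3rd largest change by size of the 20132 probes (limma adjusted p 1.05e-14). The other probe of *ACTN3* gave 7.29. By 180 dpc 54.8% of this log2 change had taken place, and that step, 3.79, was the 2nd largest of all probes.

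*ACTN2* rose by less. At 110 dpc its log2 intensity was 8.14, 8.29 and 8.29 in BA and 8.48 and 8.38 in CH, and at 260 dpc 10.45 and 10.56 in BA and 10.36, 10.53 and 10.72 in CH. The stages were far apart and the breeds overlapped at 260 dpc, while at 110 dpc each CH foetus lay above each BA foetus. The mean difference between the stages was 2.19 ± 0.12 (SE), or 4.55-fold (limma adjusted p 1.23e-10), spread over the steps as 33.8%, 29.2% and 36.9%. Its 4 probes gave 2.19 to 2.74. Within an array, *ACTN3* thus gained 4.74 on *ACTN2* between 110 and 260 dpc, with no overlap between the 5 arrays of each stage (exact two-sided permutation test over foetuses, p 0.01, the smallest that 100 divisions within breeds allow). This comparison was chosen after the values were seen.

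The calsarcins bind α-actinin and calcineurin at the Z-disc, *MYOZ1* and *MYOZ3* in fast fibres and *MYOZ2* in slow fibres and heart. *MYOZ1* had log2 intensities of 7.39, 7.49 and 7.46 in BA and 7.61 and 7.41 in CH at 110 dpc, and of 10.92 and 11.01 in BA and 10.43, 11.23 and 10.94 in CH at 260 dpc. The breeds overlapped at both stages. Its difference was 3.43 ± 0.14 (SE), or 10.8-fold (limma adjusted p 2.04e-12). *MYOZ3* had 4.81, 5.46 and 4.93 in BA and 5.52 and 5.21 in CH at 110 dpc, and 7.16 and 6.63 in BA and 7.30, 7.29 and 6.85 in CH at 260 dpc. All foetuses of 260 dpc were above all of 110 dpc, and the breeds again overlapped. The difference was 1.81 ± 0.17 (SE), or 3.50-fold (limma adjusted p 7.02e-08).

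*MYOZ2*, the remaining calsarcin, changed least of the 9 genes. In BA its log2 intensity was 6.90, 7.17 and 6.75 at 110 dpc, 7.01 and 7.10 at 180 dpc, 6.80, 6.95 and 7.06 at 210 dpc and 7.41 and 7.77 at 260 dpc. In CH it was 7.06 and 7.14 at 110 dpc, 7.21, 7.004 and 7.04 at 180 dpc, 7.14, 7.10 and 7.10 at 210 dpc and 7.81, 7.69 and 8.02 at 260 dpc. The 16 foetuses of the earlier stages lay within 6.75 to 7.21, below each of the 5 at 260 dpc. From 110 to 260 dpc it rose by 0.69 ± 0.10 (SE), or 1.62-fold (limma adjusted p 9.11e-06), and 99.3% of it fell between 210 and 260 dpc. Quantile normalisation lowered it to 0.18 (limma adjusted p 0.11) and the authors' unscaled log2 values to 0.30 (adjusted p 0.22), so the rise of *MYOZ2* depended on the scaling. *MYOZ1* gained 2.74 and *MYOZ3* gained 1.11 on *MYOZ2* within an array, each without overlap between the stages (exact two-sided permutation p 0.01, again the smallest possible). These ratios were also chosen after the values were seen.

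*TCAP* encodes telethonin, which caps the ends of titin at the Z-disc, and *LDB3* a PDZ and LIM protein that binds α-actinin. The log2 intensity of *TCAP* was 4.29, 4.38 and 4.42 in BA and 4.94 and 4.89 in CH at 110 dpc, and 6.91 and 6.998 in BA and 6.51, 7.30 and 6.49 in CH at 180 dpc. At 260 dpc it was 8.14 and 8.35 in BA and 8.48, 8.15 and 8.82 in CH. Each of the 5 foetuses at 180 dpc was above each at 110 dpc, and the breeds overlapped except at 110 dpc. The difference from 110 to 260 dpc was 3.72 ± 0.15 (SE), or 13.2-fold (limma adjusted p 3.31e-12), with 59.6% of it by 180 dpc. *LDB3* went from 6.95, 7.31 and 7.46 in BA and 7.38 and 7.40 in CH at 110 dpc to 10.21 and 10.17 in BA and 9.96, 10.38 and 10.33 in CH at 260 dpc. The breeds overlapped at both stages, and the stages were more than 2 log2 units apart. Its difference was 2.89 ± 0.12 (SE), or 7.42-fold (limma adjusted p 2.21e-12), with 51.9% of it after 210 dpc, and its 4 probes gave 2.89 to 3.20.

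*CSRP3* encodes muscle LIM protein, a Z-disc protein of slow fibres and heart that has been linked to the sensing of stretch. In BA its log2 intensity was 7.39, 7.40 and 7.22 at 110 dpc, 7.58 and 7.69 at 180 dpc, 7.44, 7.95 and 7.82 at 210 dpc and 8.46 and 9.60 at 260 dpc. In CH it was 7.54 and 7.27 at 110 dpc, 7.72, 7.69 and 7.48 at 180 dpc, 8.30, 7.77 and 9.05 at 210 dpc and 8.56, 8.56 and 9.71 at 260 dpc. The spread within groups was narrow at 110 and 180 dpc and wide from 210 dpc, where 1 CH foetus already reached the range of the 260 dpc foetuses. The difference from 110 to 260 dpc was 1.61 ± 0.26 (SE), or 3.06-fold (limma adjusted p 3.41e-05), and 57.8% of it came after 210 dpc. That last step was 0.93 ± 0.25 (SE, limma adjusted p 0.0054), and without BA replicate 2 of 260 dpc it was 0.65 with an adjusted p of 0.061. It was also lost with quantile normalisation, with 0.51 (adjusted p 0.093), and with the authors' unscaled values, with 0.52 (0.10).

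*ANKRD1* encodes the cardiac ankyrin repeat protein, which binds titin in the I-band and is also found in the nucleus. In BA its log2 intensity was 4.71, 3.68 and 3.74 at 110 dpc, 3.09 and 4.46 at 180 dpc, 2.97, 3.41 and 5.11 at 210 dpc and 6.77 and 8.61 at 260 dpc. In CH it was 4.99 and 3.34 at 110 dpc, 3.47, 3.95 and 5.22 at 180 dpc, 6.82, 4.15 and 8.82 at 210 dpc and 7.14, 6.18 and 7.06 at 260 dpc. The 5 foetuses at 260 dpc were above all foetuses of 110 and 180 dpc, whereas at 210 dpc 2 CH foetuses lay above 6 and the other 4 foetuses between 2.97 and 5.11. The highest of the 21 values was that of a CH foetus at 210 dpc. The pooled SD within groups was 1.25, against 0.45 for *CSRP3* and 0.15 to 0.29 for the other 7 genes.

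*ANKRD1* rose from 110 to 260 dpc by 3.14 ± 0.71 (SE), or 8.80-fold (limma adjusted p 0.00097), and its 3 probes gave 3.11 to 3.14. In BA it was 3.65 ± 1.01 (SE, limma adjusted p 0.0059) and in CH 2.63 ± 1.01 (SE, limma adjusted p 0.037). The call within BA was lost without BA replicate 2 of 260 dpc, with 2.73 and an adjusted p of 0.10. In CH it was lost without CH replicate 2 of 110 dpc, with 1.80 (adjusted p 0.28), without CH replicate 1 or 3 of 260 dpc, with 2.45 and 2.49 (0.085 and 0.083), and with the array slide as a block, with 1.66 (adjusted p 0.26). The second tested probe of *ANKRD1* missed the threshold in CH with 2.53 and an adjusted p of 0.060. The average over breeds passed without any single array, and the lowest value was 2.68, without BA replicate 2 of 260 dpc (adjusted p 0.0093).

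The changes are given by step. From 110 to 180 dpc 6 of the 9 genes rose, among 12.5% of all probes called higher, namely *ACTN3*, *TCAP*, *MYOZ1*, *LDB3*, *ACTN2* and *MYOZ3*, by 0.50 for *MYOZ3* to 3.79 for *ACTN3*. *CSRP3* differed by 0.26 (95% interval −0.29 to 0.81), *MYOZ2* by 0.05 (−0.16 to 0.26) and *ANKRD1* by −0.11 (−1.62 to 1.40). *MYOZ3* passed narrowly (limma adjusted p 0.043). It lost the call without any one of 11 arrays, with values from 0.39 to 0.57 and adjusted p from 0.051 to 0.15, namely BA replicates 1 and 3 of 110 dpc, both of 180 dpc and all 3 of 210 dpc, and CH replicates 1 and 2 of 110 and of 180 dpc. It was also lost with median scaling, the authors' unscaled values, no filter, a filter on detection, sex in the model or the scan day as a block, with 0.47 to 0.52 and adjusted p from 0.051 to 0.23. From 180 to 210 dpc 5 of 9 rose, against 5.35% of all probes: *ACTN3* by 1.62, *ACTN2* by 0.64, *MYOZ1* by 0.57, *TCAP* by 0.56 and *LDB3* by 0.49. *MYOZ3* differed by 0.28 (−0.06 to 0.62), *MYOZ2* by −0.05 (−0.24 to 0.15), *CSRP3* by 0.42 (−0.10 to 0.94) and *ANKRD1* by 1.22 (−0.21 to 2.65). For *TCAP* this step was lost with the slide as a block (0.47, adjusted p 0.16) and without a filter (0.56, adjusted p 0.061). It was also lost without either BA foetus of 180 dpc, BA replicate 1 of 210 dpc, CH replicate 1 or 3 of 180 dpc or CH replicate 2 of 210 dpc, with 0.49 to 0.59 and adjusted p from 0.051 to 0.084.

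From 210 to 260 dpc 9 of 9 genes rose, where 24.8% of all probes were called higher. The last step was 2.03 ± 0.68 (SE) for *ANKRD1*, the 65th largest of all probes, and between 0.69 for *MYOZ2* and 1.57 for *MYOZ1* among the other 8. Its limma adjusted p for *ANKRD1* was 0.022, and without BA replicate 2 of 260 dpc the value was 1.57 with an adjusted p of 0.13, and without BA replicate 1 of 210 dpc 1.81 with 0.053. It was also lost without a filter (2.03, adjusted p 0.051) and with the scan day as a block (1.75, 0.073). With the authors' unscaled values 6 of the 9 genes passed for this step, the exceptions being *ACTN2*, *MYOZ2* and *CSRP3*. The fast-fibre gene *ACTN3* and the titin cap gene *TCAP* made most of their log2 change before 180 dpc, while *MYOZ2*, *ANKRD1* (64.7%), *CSRP3*, *MYOZ3* (56.9%) and *LDB3* made most of it after 210 dpc. A difference in timing between genes was not tested.

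**Figure D2:**
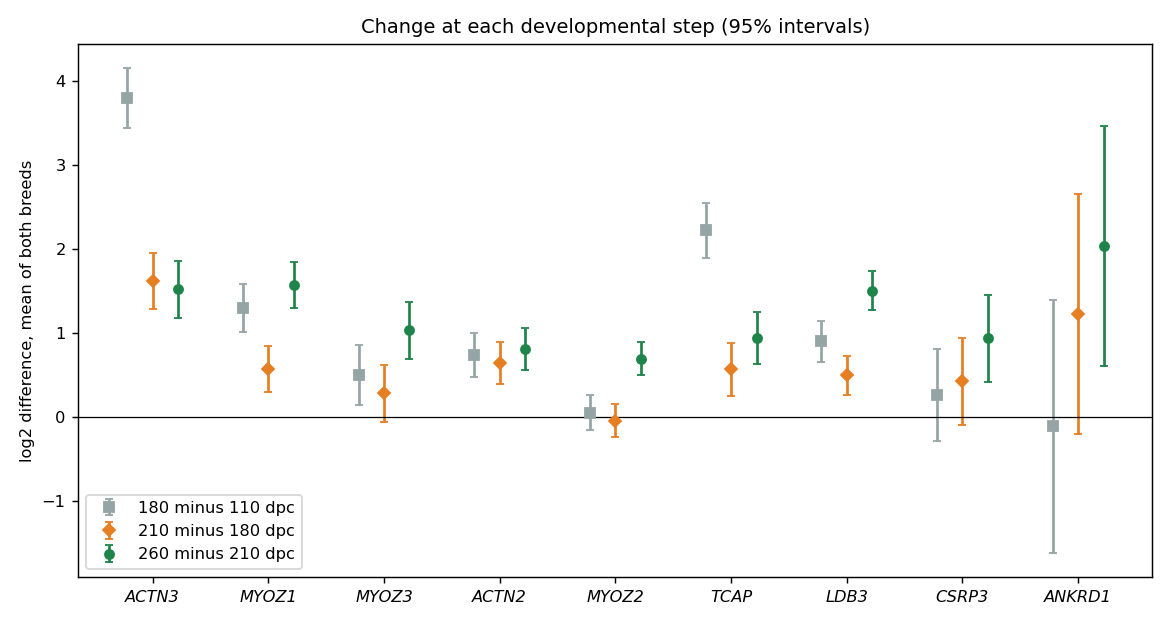
Log2 difference between neighbouring stages, as the mean of both breeds (vertical axis), for each of the 9 genes, with 95% intervals from the limma fit over 21 arrays. *ACTN3* (3.79) and *TCAP* (2.22) have their largest step between 110 and 180 dpc, and the intervals of *ANKRD1* are the widest.

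No breed difference of the 9 genes passed the threshold at any stage (limma, BA minus CH, Benjamini-Hochberg over 20132 probes). Of all probes 0.273% passed at 110 dpc, 0.00993% at 180 dpc and 0 at 210 and 260 dpc. At an unadjusted p under 0.05 there was 1 of the 9 genes at 110 dpc (*TCAP*), 0 at 180 dpc, 1 at 210 dpc (*ANKRD1*) and 0 at 260 dpc. Of the 20132 probes 2775, 1242, 1054 and 1075 did so at these stages, and the counts of the members are no result about them. For the 7 genes other than *CSRP3* and *ANKRD1*, the 95% intervals at 210 dpc stayed between −0.59 and 0.57, which bounds a breed difference of each at 1.51-fold, and at 260 dpc between −0.76 and 0.57, or 1.69-fold. Differences within these bounds were not detectable with 2 or 3 foetuses a group. For *ANKRD1* the interval at 260 dpc ran from −1.23 to 3.03. It thus held differences of up to 8.19-fold with BA higher, and smaller ones with CH higher.

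At 110 dpc the difference was negative, CH being higher, in 9 of 9 genes, from −0.06 for *MYOZ1* to −0.56 for *TCAP*, with a median of −0.16. Of all tested probes 57.3% were below 0 at this stage, with a median of −0.04. These genes share the same 5 arrays, so this is no count of independent values. *TCAP*, with 4.29 to 4.42 in BA and 4.89 and 4.94 in CH, did not overlap between the breeds, and its difference of −0.56 ± 0.22 (SE) had a limma adjusted p of 0.27. On the slide that held both breeds of this stage it was −0.56. At the later stages *TCAP* differed by 0.19, −0.11 and −0.24. *ACTN2* was also without overlap at 110 dpc, by −0.19 (95% interval −0.56 to 0.18), and so was *MYOZ2* at 210 dpc, by −0.18 (−0.44 to 0.09). The 4 probes of *ACTN2* gave −0.52 to −0.19 at 110 dpc, and none of them passed the threshold. In all, 2 of the 9 genes did not overlap between the breeds at 110 dpc, 0 at 180 dpc, 1 at 210 dpc and 0 at 260 dpc. Of all tested probes with a value in every foetus of the stage, 29.2%, 25.5%, 10.5% and 19% did not overlap, so that the counts of the members are no result about them.

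*ANKRD1* differed between the breeds by −2.77 ± 0.90 (SE) at 210 dpc, lower in BA, the 5th largest difference by size of the 20132 probes. Its limma adjusted p was 0.68 (unadjusted p 0.0071), and the breeds overlapped, since the BA values were 2.97, 3.41 and 5.11 and the CH values 6.82, 4.15 and 8.82. All 3 probes of the gene gave −2.77 to −2.89. On the slides that held both breeds at this stage it was −1.18 and −3.41, with 1 foetus of each breed on each. On the scan day with 2 BA foetuses and 1 CH foetus it was −0.11. Without CH replicate 3 of 210 dpc it was −1.65, and without CH replicate 2 it was −3.99. BA at this stage had 1 male of 3 and CH 2 males of 3, and with sex in the model the value was −2.55. The mean level of the 4 smooth muscle markers at this stage was 5.60 to 6.27 in BA and 6.42 to 6.71 in CH, without overlap. *CNN1* among them differed by −1.84 (limma adjusted p 0.43), and *MYH11*, *ACTG2* and *ACTA2* by −0.48, −0.13 and −0.43. Within groups the mean level of these markers had an r of 0.27 with *ANKRD1*, and its part in the difference was not tested. *CSRP3* differed in the same direction by −0.63 ± 0.33 (SE, 95% interval −1.33 to 0.06, limma adjusted p 0.99), and without CH replicate 3 by −0.30. At 260 dpc it differed by 0.09 (95% interval −0.68 to 0.86), and its other probe gave 0.21.

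At 260 dpc the sign of *ANKRD1* was the opposite, 0.90 ± 1.01 (SE, limma adjusted p 1.00), and without BA replicate 2 it was −0.02. The change from 210 to 260 dpc in BA minus that in CH came to 3.67 ± 1.35 (SE), the 3rd largest of all probes, with a limma adjusted p of 1.00 (unadjusted p 0.015). No gene of the 9 passed for this difference of changes or for that from 110 to 260 dpc, and 0 of the 20132 probes did. In a moderated F test over the 3 later stages against 110 dpc, 0 of 9 genes had a breed difference that changed with stage, and 0 of all probes, with *ANKRD1* at an unadjusted p of 0.077. For the change from 110 to 260 dpc, the 7 genes other than *CSRP3* and *ANKRD1* differed between the breeds by −0.09 to 0.31. On average over the 4 stages *MYOZ2* differed by −0.15 ± 0.07 (SE, limma unadjusted p 0.037, adjusted p 0.37), *ANKRD1* differed by −0.61 ± 0.49 (SE), and 0 of 9 genes passed, against 0.358% of all probes.

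**Figure D3:**
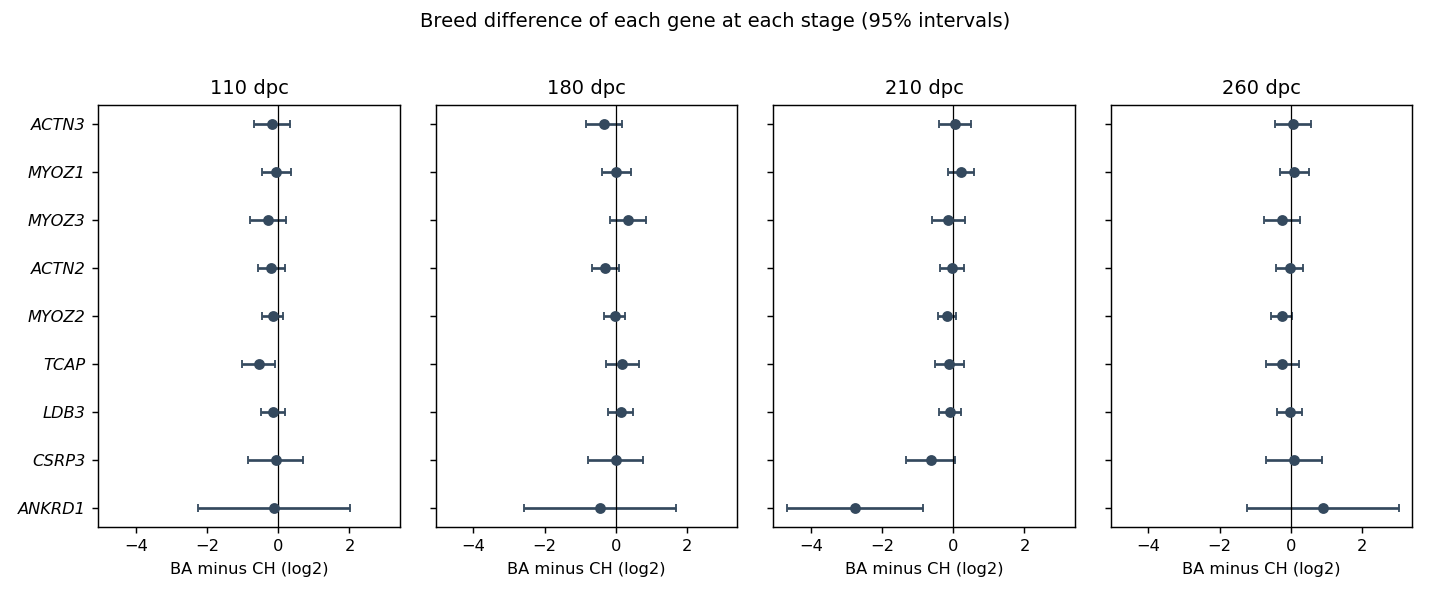
Breed difference, BA minus CH on the log2 scale (horizontal axis), of each of the 9 genes at each of the 4 stages, with 95% intervals from the limma fit. At 210 dpc *ANKRD1* (−2.77) lies far to the left of the other genes, and its intervals span several log2 units at every stage.

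The members' covariation between foetuses was measured after removing the mean of each breed and stage group from every value, so that it reflects differences between foetuses of the same breed and stage. Over the 36 pairs of genes and 21 arrays, Pearson's r was above 0 in 24 and below 0 in 12, with a median of 0.26. By an exact permutation within groups (62208 permutations, two-sided), 6 pairs had an unadjusted p under 0.05 and 1 passed after Benjamini-Hochberg adjustment over the 36 pairs. This was *ACTN3* with *MYOZ1*, a pair of fast-fibre genes, with r 0.72 (exact adjusted p 0.032) and Spearman's rho 0.76 (exact adjusted p 0.018). Without the 2 arrays farthest from the median of *ACTN3* r was 0.65. By r with *ACTN3*, *MYOZ1* stood at rank 106 of 7907 named genes, and by r with *MYOZ1*, *ACTN3* stood at rank 188. An r of this size was thus not particular to this pair. Both genes also moved with the array's overall brightness: r with the log2 75th percentile of the array was −0.53 for *ACTN3* and −0.54 for *MYOZ1*, and the part of this in their covariation was not tested. The pair's r was 0.56 after quantile normalisation (exact adjusted p 0.26) and 0.83 with the slide removed (0.050). It ranged from 0.66 to 0.76 without single arrays that cost it the call (exact adjusted p 0.059 to 0.12). These were 11 arrays: BA replicate 2 of 110 dpc, both BA of 180 dpc, BA replicate 1 of 210 dpc, both CH of 110 dpc, all 3 CH of 180 dpc and CH replicate 2 of 210 and of 260 dpc.

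The next pairs did not pass the adjustment. For each pair the 2 farthest arrays are those farthest from the median of the gene named first. *ACTN3* with *MYOZ3* had r 0.70 and rho 0.58 (exact permutation p 0.013, adjusted p 0.18), and r was 0.51 without the 2 farthest arrays. It passed without CH replicate 1 or 3 of 260 dpc, with r 0.81 and 0.74 (exact adjusted p 0.035 and 0.048). *MYOZ1* with *LDB3* had r 0.64 and rho 0.49 (exact p 0.019, adjusted p 0.18), and *ACTN3* with *LDB3* r 0.63 and rho 0.55 (exact p 0.050, adjusted p 0.23). Without the 2 farthest arrays these fell to 0.49 and 0.40. *MYOZ2* with *CSRP3*, both slow-fibre genes, had r 0.59 and rho 0.58 (exact p 0.020, adjusted p 0.18), and r was 0.55 without the 2 farthest arrays. This pair was chosen after its values were seen. Not all pairs among *ACTN3*, *MYOZ1*, *MYOZ3* and *LDB3* had a high r. *MYOZ1* with *MYOZ3* had 0.34, or 0.54 without the 2 farthest arrays, and *MYOZ3* with *LDB3* had 0.43, or 0.11 without them.

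*CSRP3* with *ANKRD1* had r 0.65 and rho 0.54 (exact permutation p 0.035, adjusted p 0.21). Without the 2 arrays farthest from the median of *CSRP3* r was 0.63, but these did not include the CH foetus of 210 dpc highest for *ANKRD1*. With single arrays left out r ran from 0.49 to 0.74. By r with *ANKRD1*, *CSRP3* stood at rank 44 of 7907 named genes. A CH foetus of 210 dpc that had 8.82 for *ANKRD1* had 9.05 for *CSRP3*, while the CH foetus of that stage with 4.15 had 7.77, the lowest of its group for both genes. The lowest r were −0.51 for *MYOZ3* with *ANKRD1* (exact p 0.027, adjusted p 0.20, rho −0.49), −0.47 for *MYOZ3* with *CSRP3* (exact p 0.078, adjusted p 0.26, rho −0.38) and −0.35 for *LDB3* with *ANKRD1* (exact p 0.053, adjusted p 0.23, rho −0.24). Without the 2 farthest arrays they were −0.50, −0.67 and −0.33.

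**Figure D4:**
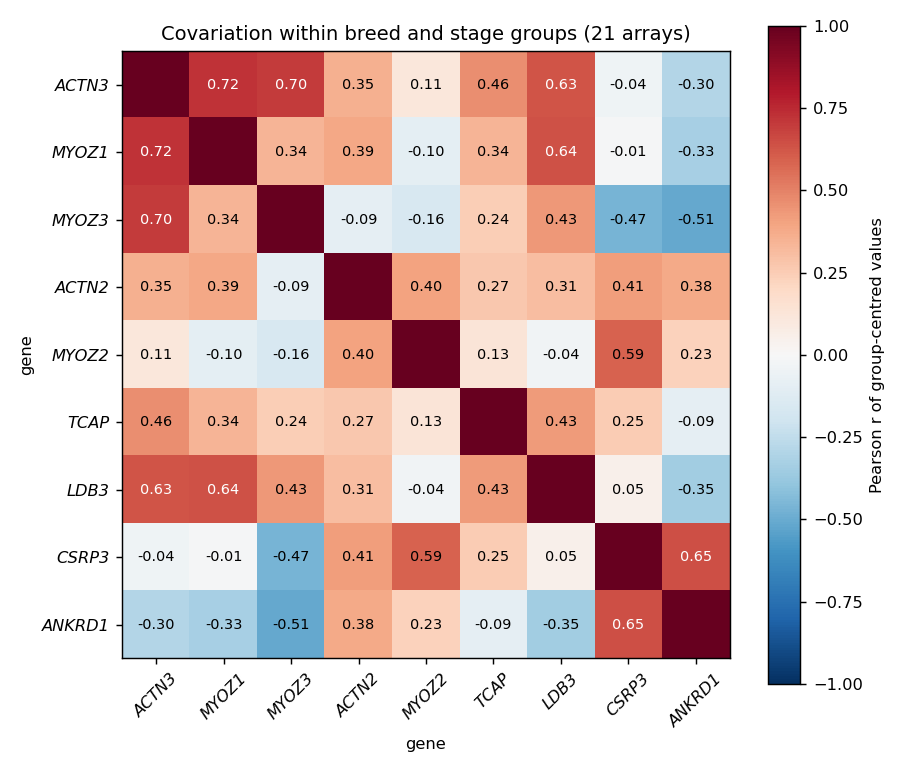
Pearson's r between the group-centred log2 values of each pair of the 9 genes over 21 arrays (colour and printed value). The highest value is 0.72, for *ACTN3* with *MYOZ1*, and the lowest −0.51, for *MYOZ3* with *ANKRD1*.

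**Figure D5:**
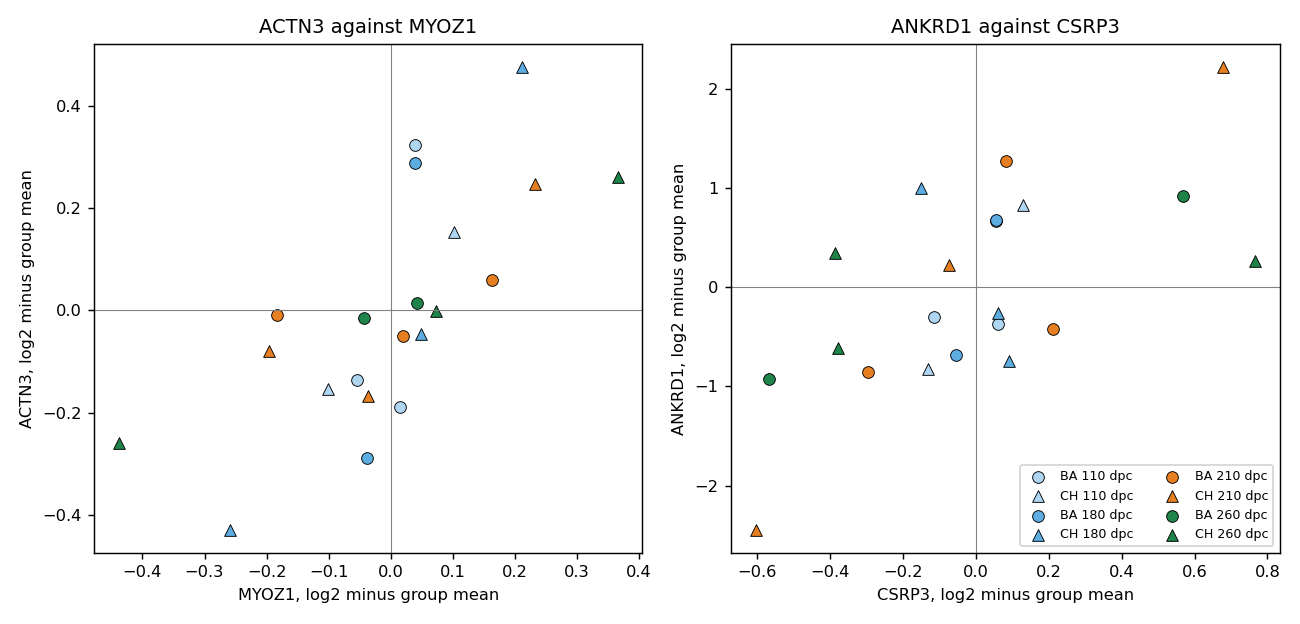
Log2 value minus the group mean for *ACTN3* against *MYOZ1* (left) and *ANKRD1* against *CSRP3* (right), with 1 point per array, coloured by stage and shaped by breed. The vertical spread is several times wider for *ANKRD1* (from −2.45 to 2.22) than for *ACTN3* (from −0.43 to 0.48), and 2 CH foetuses of 210 dpc mark its ends.

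Across genes, the group-centred values most like those of *ANKRD1* were *TNFRSF12A*, a receptor of the tumour necrosis factor family, with r 0.90, *LITAF* with 0.89 and *RABGEF1* with 0.84, over 21 arrays and 7907 named genes. For *CSRP3* they were *ZNF385B* with 0.88, *RRAS2* with 0.86 and *RNF144B* with 0.82. For *ACTN3* they were *HSPB3*, a small heat shock protein of muscle, with 0.88, *CDIP1* and *DCAF11*, both with 0.87. For *MYOZ1* they were *RPL37A*, *DDX28* and *UBE2V1*, for *MYOZ3* *MYBPHL*, *ITGA6* and *GTF2F1*, and for *MYOZ2* *DNAJC24*, *WBP4* and *TRIM36*. For *TCAP* they were *SYT4*, *SCRN3* and *NAP1L4*, and for *LDB3* *MRPL58*, *SYNGR2* and *BCS1L*. These are the highest of many values over the same arrays, which share scaling and slide, and they are given as a description.

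Other genes of the Z-disc were counted for context. Of the 20132 probes tested 12906 were called between 110 and 260 dpc in either direction, and 6708 (33.3% of those tested) were higher. Of 33 further Z-disc genes listed, 23 had a probe and 21 were tested, of which 17 rose from 110 to 260 dpc, 2 fell and 2 did not pass (limma, adjusted p under 0.05), with a median difference of 1.98. The highest were *ACTN4*, a non-muscle α-actinin, by 3.66 ± 0.09 (SE), *PDLIM3*, an α-actinin binding LIM protein, by 3.59 ± 0.09, and *MYOT* (myotilin) by 2.87 ± 0.13, and the 2 that fell were *CAPZA1*, an actin capping subunit, by −0.48 ± 0.07, and *FHL2* by −0.80 ± 0.24. The mean level of this list correlated with *CSRP3* (r 0.72) and *ANKRD1* (r 0.59) within groups. Of 19 genes known to respond to stretch or to the YAP, TEAD and SRF factors, 11 had a probe and 9 were tested, and 5 rose, 2 fell and 2 did not pass, with a median of 0.65. *FOS* rose by 3.55 ± 0.31 (SE), *ATF3* by 3.28 ± 0.74 and *CCN1* by 1.83 ± 0.26, while *RCAN1* fell by 1.91 and *WWTR1* by 0.76. None of these 9 passed between the breeds at 210 or 260 dpc or on average, and neither did any of the 21. At 210 dpc *ATF3* differed by −1.47, where the median of the 9 was 0.03. *XIRP1* of the Z-disc list differed by −1.06, where the median of the 21 was −0.12. Within groups the mean level of the stretch list had an r of 0.45 with *ANKRD1*. The part of these genes in the breed difference of *ANKRD1* was not tested.

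For the fibre types, 5 of the 9 listed fast-fibre genes were tested and 5 rose from 110 to 260 dpc, with a median of 2.79. *PVALB*, a further listed gene with a probe, did not pass the filter and differed by −1.34 ± 0.37 (SE, fit of all probes). It is part of the mean level of the 6 fast-fibre genes used below. Of the 8 slow-fibre genes 7 were tested, of which 5 rose and 2 did not pass, with a median of 1.39. Among all tested probes 33.3% were called higher. The mean level of the slow-fibre list was 7.64 in BA and 7.70 in CH at 110 dpc, 7.20 and 7.59 at 210 dpc and 8.95 and 9.05 at 260 dpc. Its mean at 260 dpc was above that at 210 dpc in both breeds, as was the mean of each of the 9 measured genes and of the fast-fibre list. The fast-fibre list went from 6.63 and 6.79 at 110 dpc through 7.40 and 7.64 at 180 dpc to 8.62 and 8.61 at 260 dpc. Within groups its mean level had an r of 0.74 with *MYOZ1*, 0.44 with *ACTN3*, 0.09 with *MYOZ3* and −0.35 with *MYOZ2*, given as a description. With the mean level of the slow-fibre list r was −0.06 for *MYOZ2*, −0.02 for *CSRP3* and 0.33 for *MYOZ3*. The r of *MYOZ1* was of like size with other lists, −0.75 with the smooth muscle markers and −0.59 with the Schwann cell markers, and that of *LDB3* with the smooth muscle markers was −0.53. The part of these cell types in the covariation was not tested.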

How the data were processed

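RNA of 21 foetal muscles was hybridised to single-colour bovine 44K Agilent arrays. The authors made the deposited intensity values with Feature Extraction 10.7, and their deposited log2 table holds the same values unscaled (99.98% of 649670 values within 0.01). Here controls and 258 outlier-flagged spots were dropped, replicate spots were averaged, and each array's 75th percentile (525 to 1174 intensity units) was subtracted on the log2 scale before adding a constant of 2.69. An array had 29027 to 34507 probes well above background. Probes were named through RefSeq accessions and the ARS-UCD2.0 annotation. As the array was designed on another assembly, no coordinates are given, and no sequences of the probes were used.

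Probes with a group mean above 0 in at least 7 of the 8 breed and stage groups were tested (20132 probes, 7932 named genes) with limma 3.58.1 in R 4.3.3, with 1 mean per group, 13 residual and 3.79 prior degrees of freedom, and Benjamini-Hochberg adjustment over all of them. Intervals are at 95%. In simulated data for 20132 probes with 200 shifted by 1 log2 unit, 95.0% were recovered for the stage change and 87.0% for the breed difference at 210 dpc, with 6 and 19 false calls. The shifted probes were drawn from the brighter ones, the noise was normal and independent between probes, and no other probe differed between groups. These shares therefore need not hold for the real data, where 0 probes passed for the breed difference at 210 dpc. Covariation used exact permutations within groups in Python (numpy, scipy and pandas), and plots matplotlib.

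The text names all listed genes by their brightest tested probe, the 3 highest and lowest called genes of the other Z-disc and stretch lists, the 3 genes most like each member (those for ACTN2 are not reported here), and the 5 highest and 3 lowest pairs. Members and lists were chosen with earlier results of these data known. Replicates are different foetuses. The motif search in promoters that had been planned was not run, as no promoter sequences were used here. Alternatives were normexp, quantile and median scaling, the authors' table, other filters, sex, slide, scan day, sire or replicate number in the model, other variance settings, the mean of a gene's probes, and leaving out each array.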

Additional observations from a re-analysis of the deposited data

How the results depend on the processing

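Of 1986 values recomputed under alternatives for 60 results, 1895 kept their direction and side of the threshold (or, for counts, stayed within 1.5 times), 66 lost a call, 5 gained one, 19 counts moved and 1 changed sign: the breed difference of *ANKRD1* at 260 dpc, 0.90, was −0.0186 without BA replicate 2 of that stage and 1.82 without BA replicate 1. The count of genes that rose from 180 to 210 dpc, 5, was 1 with the authors' unscaled table. With that table the median difference of all probes moved by −0.0013 for this step and by −0.39 for 260 minus 110 dpc. Of the 36 pairs, 1 passed in the fit reported, against 0 with normexp, quantile normalisation, sex or slide, 5 with the authors' table, and 0 to 2 when each array was left out in turn. Leaving out single arrays gave 9 genes for the change from 110 to 260 dpc, 5 to 6, 4 to 5 and 7 to 9 for the successive steps, 8 to 9 within each breed, and 0 for every breed comparison. The processing alternatives gave 8 to 9 genes for the change from 110 to 260 dpc, 5 to 6, 1 to 5 and 6 to 9 for the steps, 8 to 9 within BA, 7 to 9 within CH, and 0 for every breed comparison. The causes were not tested. For the change within CH, the call of *ANKRD1* was lost with quantile normalisation, without a filter, with a filter on detection, with sex, slide or replicate number in the model, with trended and robust variance, and without CH replicate 2 of 110 dpc or CH replicate 1 or 3 of 260 dpc.

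Foetuses of different groups share replicate numbers. Group-centred values of samples with the same number had a median r of −0.0051 over 66 pairs and others −0.011 over 126 pairs. Samples with the same number were thus about as alike as others, which does not show whether an origin is shared. With the replicate number as a block, 9 genes rose from 110 to 260 dpc and 8 within CH, where *ANKRD1* had 2.18 (limma adjusted p 0.058), and no breed difference passed.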
